A study of Mus musculus with 127 samples.

Results

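The wild-type cells lowest in Ter119, the 6 cells of class A, are described here against the 10 wild-type cells of class B. They were chosen by their class labels alone, WA1 to WA6 and WB1 to WB10, and make up 16 of the 48 wild-type cells and of the 127 cells of the series. All 16 came from marrow of C57BL/6J mice of wild-type genotype, for which the labels name no agent, and all were labelled as erythroblasts, the nucleated precursors of red cells. The remaining cells of the series carried a deletion of Flvcr, a heme exporter, or came from marrow after treatment with erythropoietin (EPO), and they are used only where named. Each cell was caught in a chamber of a microfluidic chip, imaged for an antibody to Ter119, a surface antigen that appears as red cell precursors mature, and then lysed for full-length cDNA sequencing. The class letter followed that fluorescence, which ran from 0.0838 in WA1 to 0.261 in WA6 in class A and from 0.330 in WB1 to 0.541 in WB10 in class B, on the normalized scale of the labels. All 16 cells sat on 1 chip. The labels name no animal, so each class counts as 1 sample, no p-value is given and no difference could be checked against replicates. Each SD is taken over the cells of a class.

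Red cells arise from marrow progenitors that exchange the transcription factor GATA2 for GATA1, switch on EPO receptor and KLF1, and then fill with heme and globin while they pass through a last series of divisions. Basophils and mast cells, which carry the high-affinity IgE receptor and store proteases in granules, keep GATA2. Monocytes and plasmacytoid dendritic cells are marrow-born leukocytes that share the transcription factor IRF8.

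Levels below are log2(RPKM + 1), where RPKM is the read number scaled to transcript length and library size, so 0 means that a gene was listed at 0. Differences are class A minus class B on that scale, which understates the change of low genes, and a difference from a class at 0 is no fold. A gene counted as detected at an RPKM of at least 1. Between 2382 (WA4) and 4047 (WA6) genes were detected in class A cells, and between 1500 (WB5) and 3748 (WB9) in class B cells. At the depth estimated from the smallest steps of the values, 1 read in a transcript of 1 kilobase is worth 0.258 to 0.496 RPKM in class A and 0.200 to 0.381 RPKM in class B. That value falls as transcripts get longer, and the estimate is approximate. A gene was kept for comparison where the mean of both class means was at least 1, which left 4264 genes. A gene at 0 throughout 1 class was kept only with a mean of at least 2 in the other class. Its difference was then at least 2 by rule.

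The label erythroblast was not borne out by the late erythroid genes of class A, and by early ones in WA6 alone. Globins took 0.00111% (WA6) to 0.290% (WA1) of the summed RPKM of class A cells, against 29.0% (WB10) to 88.9% (WB2) in class B cells. This share adds up every row of the globin genes, whose near-identical copies share reads. The same reads can therefore count several times, which raises the share, and it is no share of reads. Alas2, the enzyme that starts heme synthesis in red cell precursors, was listed at 0 in all 6 class A cells and lay between 4.43 and 10.34 in class B, with a median of 9.27. Slc4a1, the anion exchanger of the red cell membrane, was likewise at 0 in all 6 class A cells and between 4.88 and 6.78 in class B. In place of these genes, WA1, WA3 and WA5 held granule proteases and IgE receptor chains, and WA2 held monocyte genes. WA4 held genes of plasmacytoid cells and some of monocytes and dendritic precursors. WA6 held early erythroid genes without globin. The cells are therefore called below by their names or by their leading genes.

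**Figure D1:**
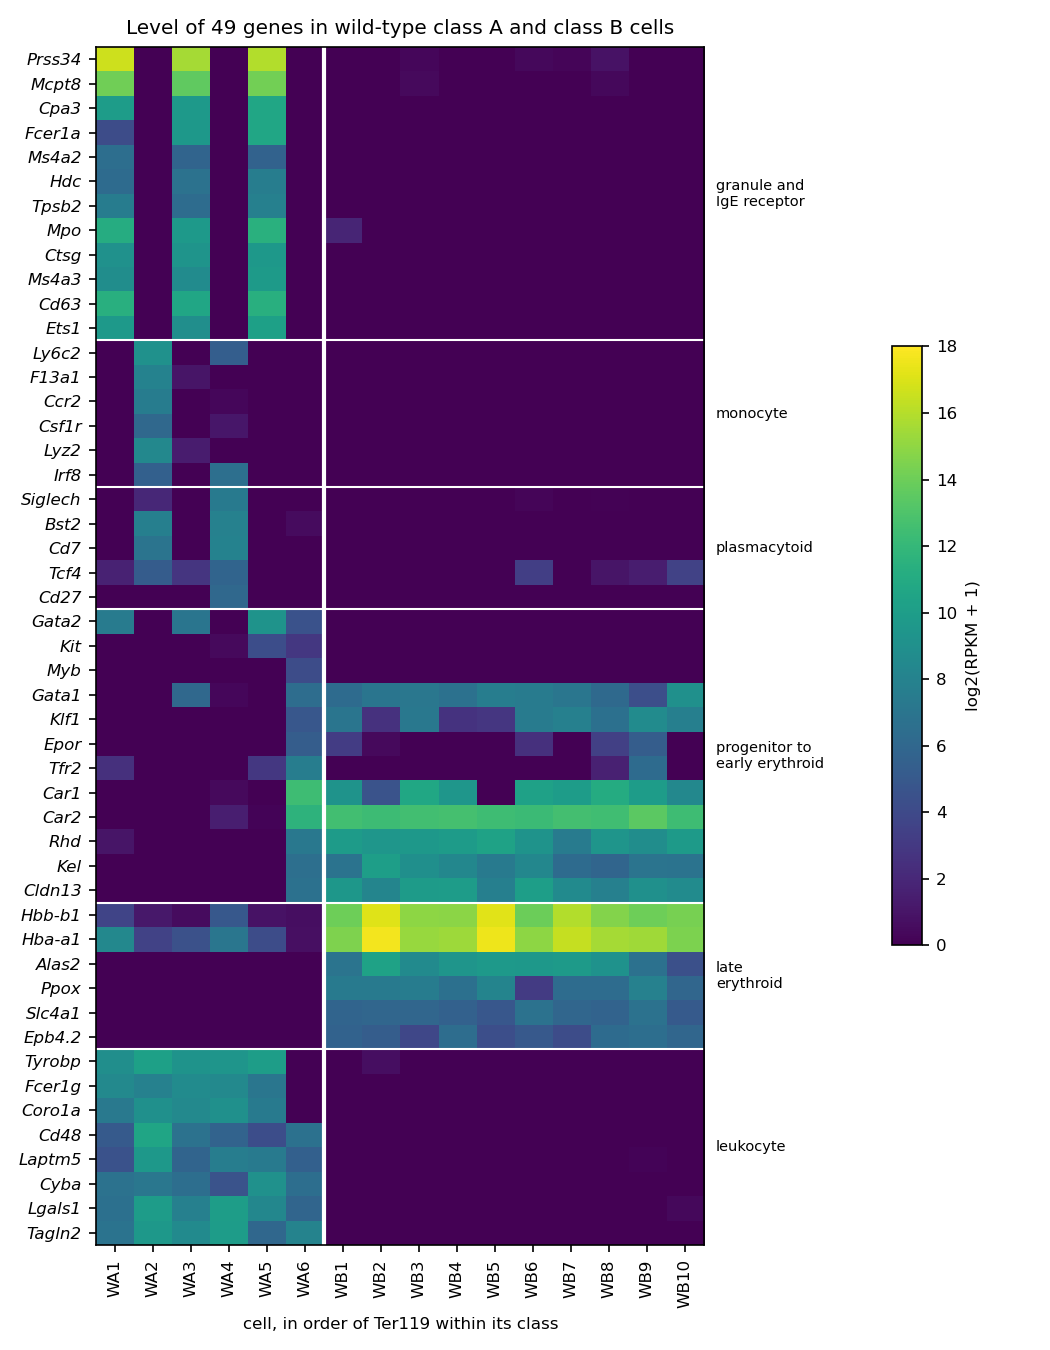
Level of 49 genes, as log2(RPKM + 1) by colour, in the 6 class A cells (left) and the 10 class B cells (right), each class in order of Ter119; the genes were picked for display after their values were seen. Prss34 reaches 16.62 in WA1 and is at 0 in WA2, WA4 and WA6, whereas Hbb-b1 lies at or below 4.94 in class A and between 13.93 and 17.19 in class B.

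The first gene group to separate class A cells from one another was that of mast cell and basophil markers. Of its 13 genes, 8 were detected in WA1, 10 in WA3 and 9 in WA5, and none in WA2, WA4 or WA6. Among class B cells, 9 had none and WB10 had 1. The summed RPKM of the list was 119371 in WA1, 63812 in WA3 and 85135 in WA5, and 0 in the 3 other class A cells, whereas class B cells reached at most 8.06.

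Prss34 (NM_178372), a serine protease of basophil granules, had an RPKM of 100462 in WA1, 49052 in WA3 and 63262 in WA5, and was listed at 0 in WA2, WA4 and WA6. In class B it was at 0 in 6 cells and at most 0.798 RPKM, in WB8. Mcpt8 (NM_008572), a second basophil granule protease, had an RPKM of 17450 in WA1, 12164 in WA3 and 18125 in WA5, and 0 in the other class A cells. Together both genes took 25.8% of all summed RPKM in WA1, 17.5% in WA3 and 18.2% in WA5. The traces of Prss34 in class B cells stood beside these very high levels on the same chip, and the part of carried-over RNA in them was not tested.

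Chains of the IgE receptor followed the same 3 cells. Fcer1a, the chain that binds IgE, had an RPKM of 17.4 in WA1, 760 in WA3 and 1633 in WA5, and was at 0 in the other class A cells and in all class B cells. Ms4a2, the beta chain, stood at 6.52, 5.77 and 5.68 in WA1, WA3 and WA5 and at 0 elsewhere. Cpa3, a carboxypeptidase of granules, stood at 9.92, 9.71 and 10.64 in these cells, and Hdc, which makes histamine, at 6.27, 6.79 and 7.60. Tpsb2, a tryptase, completed the set with 7.58, 6.36 and 7.82. Cpa3, Hdc and Tpsb2 were at 0 in the other 13 cells.

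The 3 genes fixed as markers of class A divided it in the same way, with 1 addition. Mpo (NM_010824), myeloperoxidase, stood at 11.16 in WA1, 9.75 in WA3 and 11.44 in WA5, and at 0 in WA2, WA4 and WA6. In class B only WB1 had it, at 1.87. Ctsg (NM_007800), cathepsin G, stood at 9.14, 9.31 and 9.63 in the same 3 cells and at 0 in the other 13. Gata2 (NM_008090) stood at 7.50 in WA1, 7.00 in WA3 and 9.23 in WA5, and also at 4.51 in WA6, and was listed at 0 in every class B cell. The class means of these markers, 5.39 ± 5.93 for Mpo and 4.68 ± 5.13 for Ctsg (SD over 6 cells), lie between the cells that had the gene and those listed at 0.

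Mpo and Ctsg are best known from neutrophil precursors, and the rest of the primary granule list was uneven. Of its 11 genes, WA3 had 8 detected, WA1 and WA5 had 5 each, WA2 had 3, and WA4 and WA6 had 1 each, against 2 in WB1 and none in the other class B cells. Ms4a3, a membrane protein of myeloid progenitors, stood at 8.86, 8.70 and 9.84 in WA1, WA3 and WA5. Elane, neutrophil elastase, was listed at 0 in all 6 class A cells, and Prtn3, proteinase 3, was present in WA2 alone among them, at 7.27. Of 14 late neutrophil granule genes, 11 were at 0 in all 16 cells, and the 9 eosinophil markers were all at 0 throughout.

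Other genes outside the marker list travelled with the Prss34-rich cells. Cd63, a granule membrane protein, stood at 11.38, 10.67 and 11.35 in WA1, WA3 and WA5 and at 0 in the other 13 cells. Ets1, a transcription factor, stood at 9.66, 8.87 and 10.20 there and reached at most 0.07 in any class B cell. Itga2b, an integrin chain shared by platelets, mast cells and basophils, stood at 6.74, 4.49 and 7.12. Nkg7, a granule protein of cytotoxic cells, stood at 9.88, 8.77 and 8.94.

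The 3 cells were not copies of each other. By the largest gap to any other of the 16 cells, WA1 was set apart by Sytl3, a vesicle protein, at 8.79, and by Batf, a transcription factor, at 8.58. WA3 was set apart by Gzmb, the protease granzyme B, at 9.16, and WA5 by Prss28, a tryptase-like protease, at 8.83, each at 0 in the 15 other cells. Egr1, an early-response transcription factor, stood at 10.21 in WA3 and 7.58 in WA5 but at 0 in WA1. Gata1 was detected in WA3, at 6.11, and listed at 0 in WA1 and WA5.

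Promoter sequences are shown for 2 genes of the Prss34-rich cells and 2 red cell genes of class B, because GATA2 and GATA1 bind the same motif. The 250 bases before the start of transcription were taken from RefSeq promoters on GRCm38.p6, another build than the mm9 of the expression table. The motif searched was AGATAA on either strand, which reads TTATCT on the other strand, and both forms are in capitals below.

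Prss34, chr17:25298144-25298393, plus strand: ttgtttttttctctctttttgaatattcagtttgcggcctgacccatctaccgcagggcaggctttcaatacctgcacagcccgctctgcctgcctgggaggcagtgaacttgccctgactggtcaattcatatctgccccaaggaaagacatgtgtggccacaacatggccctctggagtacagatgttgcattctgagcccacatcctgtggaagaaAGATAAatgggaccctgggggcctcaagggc
Ms4a2, chr19:11623720-11623969, minus strand: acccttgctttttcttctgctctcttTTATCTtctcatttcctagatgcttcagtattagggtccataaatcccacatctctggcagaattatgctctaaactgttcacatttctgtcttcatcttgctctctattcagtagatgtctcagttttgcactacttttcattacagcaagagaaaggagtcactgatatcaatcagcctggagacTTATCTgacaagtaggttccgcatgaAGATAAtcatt
Alas2, chrX:150547167-150547416, plus strand: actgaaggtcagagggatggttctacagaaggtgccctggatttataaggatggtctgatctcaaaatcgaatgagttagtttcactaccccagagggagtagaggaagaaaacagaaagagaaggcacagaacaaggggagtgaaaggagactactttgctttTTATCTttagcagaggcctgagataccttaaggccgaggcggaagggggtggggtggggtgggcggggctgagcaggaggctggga
Rhd, chr4:134864286-134864535, plus strand: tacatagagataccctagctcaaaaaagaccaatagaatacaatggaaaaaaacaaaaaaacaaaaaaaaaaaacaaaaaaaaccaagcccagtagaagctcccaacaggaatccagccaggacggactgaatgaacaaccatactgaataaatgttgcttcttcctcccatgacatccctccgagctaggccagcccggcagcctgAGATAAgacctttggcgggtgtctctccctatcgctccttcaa

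The Ms4a2 window holds 3 matches and the other windows 1 each. Of 32851 promoter windows of this length, 9.99% hold the motif, and these 4 were chosen for holding it. Cpa3, Fcer1a and Epor also have a match in their windows, while Mcpt8, Hdc, Klf1 and Hba-a1 have none of these letters there. A match is a description of the sequence and not a bound site.

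WA2 was the cell of the monocyte genes. Of the 15 monocyte and dendritic precursor markers, 11 were detected in WA2, 6 in WA4, 4 in WA3, 2 in WA5, 1 in WA1 and none in WA6, and no class B cell had any. Ly6c2, a surface marker of inflammatory monocytes, stood at 9.08 in WA2 and 5.41 in WA4. Ccr2, the chemokine receptor that lets monocytes leave the marrow, stood at 7.58 in WA2 and 0.33 in WA4. F13a1, a coagulation factor subunit of monocytes, stood at 8.00 in WA2 and 1.03 in WA3, and Lyz2, a lysozyme, at 8.43 and 1.40 in the same cells. Csf1r, the receptor for the monocyte growth factor, stood at 6.10 in WA2 and 1.12 in WA4. Irf5, a transcription factor of the interferon response, had the largest gap to any other cell in WA2, at 8.20 against 0 in the 15 others.

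WA4 held 5 of the 12 plasmacytoid and antigen-presenting cell markers, against 3 each in WA1 and WA2, 2 in WA3 and none in WA5 or WA6. Siglech, a surface lectin of plasmacytoid dendritic cells, stood at 7.33 in WA4 and 2.04 in WA2, and at most 0.21 in class B. Bst2, a surface protein induced by interferon, stood at 7.94 in WA4 and 7.78 in WA2. Irf8 stood at 6.59 in WA4 and 5.51 in WA2, and Cd7, an antigen of lymphoid and dendritic cells, at 7.98 and 6.93. Tcf4, a transcription factor needed by plasmacytoid cells, stood at 5.77 in WA4 but also at 5.27 in WA2, 2.80 in WA3, 1.69 in WA1 and up to 3.58 in class B. Cd27 and Ly6d, surface proteins of lymphoid precursors and plasmacytoid cells, were detected in WA4 alone, at 6.10 and 4.02. WA2 and WA4 thus shared Irf8, Bst2 and Cd7, which were at or below 0.56 in every other cell of both classes.

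The 8 genes that set WA4 farthest apart from the other 15 cells included Pirb, an inhibitory receptor of myeloid cells, at 8.20. They also included Pira4 at 7.62 and several further members of the same family, whose near-identical sequences can share reads, so the family counts as 1 observation. The markers of WA4 rest on 5 detected genes of 12, fewer than in the 3 Prss34-rich cells or WA2. WA4 also had 6 of the 15 monocyte and dendritic precursor markers. Among them Mpeg1 had an RPKM of 149.9 in WA4 and 36.0 in WA2.

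WA6, the class A cell highest in Ter119, was the cell of the early erythroid genes. Of the 15 genes of the early erythroid progenitor list, 14 were detected in WA6, against 0 to 3 in the 5 other class A cells and 10 to 14 in class B cells. Wild-type class C cells had 8 to 15 and class D cells 9 to 13, so the list was not particular to low Ter119. In class A against class B, 10 of the list's 14 kept genes were lower by at least 2 and none higher. The median difference was -4.28, where 13.7% of all kept genes were lower and 14.5% higher. Car1, a carbonic anhydrase of early erythroid cells, stood at 12.39 in WA6, at 0.47 in WA4 and at 0 in the other class A cells, against a class B median of 9.68 and a highest class B value of 11.06. Car2, its relative, stood at 11.65 in WA6 and at most 1.48 in the other class A cells, against 12.24 to 13.46 in class B. Klf1, the master regulator of globin and membrane genes, stood at 4.88 in WA6 and at 0 in the 5 others, against 2.57 to 8.69 in class B. Epor, the EPO receptor, stood at 5.32 in WA6 and at 0 in the 5 others, against 0 to 5.28 in class B, where 4 of 10 cells had it. Gata1 stood at 6.41 in WA6, against 4.30 to 9.03 in class B.

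WA6 also kept genes of earlier stages that class B lacked. Gata2 stood at 4.51 in WA6, Kit, the stem cell factor receptor, at 2.92, and Myb, a progenitor transcription factor, at 4.16, and all were listed at 0 in every class B cell. Kit was also detected in WA5, at 4.27. Tfr2, a transferrin receptor that associates with the EPO receptor, stood at 7.59 in WA6, against a class B median of 0 and a highest value of 6.28.

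Red cell surface genes were largely present in WA6. Of the 17 genes of that list, 12 were detected in WA6, against 1 to 3 in the other class A cells and 12 to 15 in class B. Rhd, the Rhesus antigen, stood at 7.23 in WA6, against 7.51 to 10.34 in class B, and Kel, the Kell antigen, at 6.61, against 5.85 to 10.11. Ermap, a surface protein of erythroid cells, stood at 5.10 in WA6, against 6.29 to 8.12 in class B, and Cldn13, a claudin of mouse erythroid cells, at 6.72, against 7.76 to 10.11.

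Late erythroid genes were missing in WA6 as in its class. Alas2, Slc4a1, Epb4.2 of the membrane skeleton and Ppox, the oxidase of heme synthesis, were listed at 0 in WA6 and in the 5 other class A cells, and each was above 3 in all 10 class B cells. Its globin levels were among the lowest of the class, with Hbb-b1, a beta globin gene, at 0.65 and Hba-a1, an alpha globin gene, at 0.72. WA6, at a Ter119 of 0.261, had 0.00111% of its summed RPKM in globin genes, whereas WB1, its neighbour in Ter119 at 0.330, had 29.1%. Both shares count near-identical globin copies separately, although these share reads.

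Spearman's rank correlation over the 4264 kept genes is given as a description. The highest correlation of WA6 with a class B cell was 0.38 (WB9) and its highest with a class A cell was 0.27 (WA3). For the other 5 class A cells the highest correlation with a class B cell was 0.16 to 0.24, and with a class A cell 0.33 to 0.38. WA3 and WA5 were nearest to each other at 0.38, as were WA2 and WA4 at 0.36. Between class B cells it ran from 0.32 to 0.52. The cells share a chip and a gene filter, and cells with few detected genes, such as WB2 and WB5, have lower values.

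**Figure D2:**
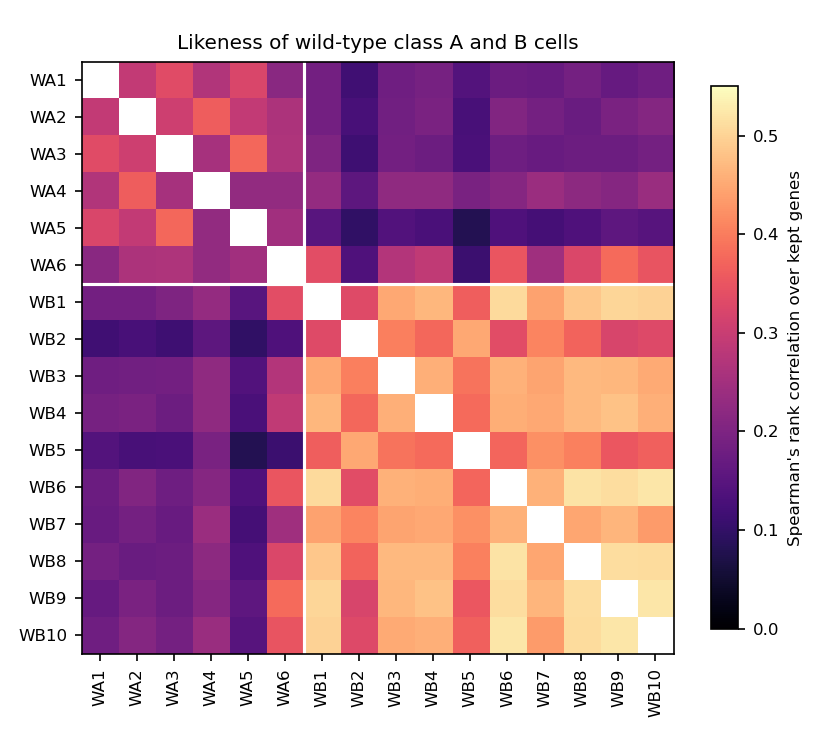
Spearman's rank correlation between cells over 4264 kept genes (colour), with class A cells first on both axes and the diagonal left blank. WA6 reaches 0.38 with WB9, more than any other class A cell reaches with class B.

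Set side by side as classes, 618 of the 4264 kept genes were higher in class A by at least 2 on the log2 scale and 585 were lower by at least 2, or 14.5% and 13.7% of kept genes. The median difference of all kept genes was 0.04. After scaling every cell to 1 sum of RPKM, that median was 0.47 and the split was 875 higher and 472 lower. Every class A cell lay above every class B cell for 32 genes (0.750%), and below for 55 (1.29%). Without WA4 the 32 became 55, and without WA6 they became 63. Over the 5 class A and 8 class B cells whose numbers of detected genes lay in the range of both classes, 927 genes were lower. Higher genes were shared unevenly among the cells, as 244 of the 618 were detected in 3 or fewer class A cells and 122 in all 6. Of the 618, 276 were detected in no class B cell. Of the 585 lower genes, 156 were detected in no class A cell and 150 in 1, and for 75 of these 150 that cell was WA6.

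WA6 detected 291 of the 585 lower genes, against 126 to 178 in the other class A cells and 369 or more in each class B cell. Of the 618 higher genes it detected 385, against 353 to 476 in the other class A cells and 27 to 196 in class B cells. These counts describe genes that the same cells chose. In the 32 wild-type cells of classes C and D, which did not choose them, 24 to 240 of the higher genes were detected per cell. Class A did choose both sets, so its excess of higher genes and lack of lower genes against these cells was built in. From the lower genes, 284 to 496 were detected in classes C and D, against 291 in WA6. That places WA6 at the low end, beside WC3 with 284 and WD11 with 293. Those 2 cells had 1148 and 1252 detected genes, against 4047 in WA6.

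**Figure D3:**
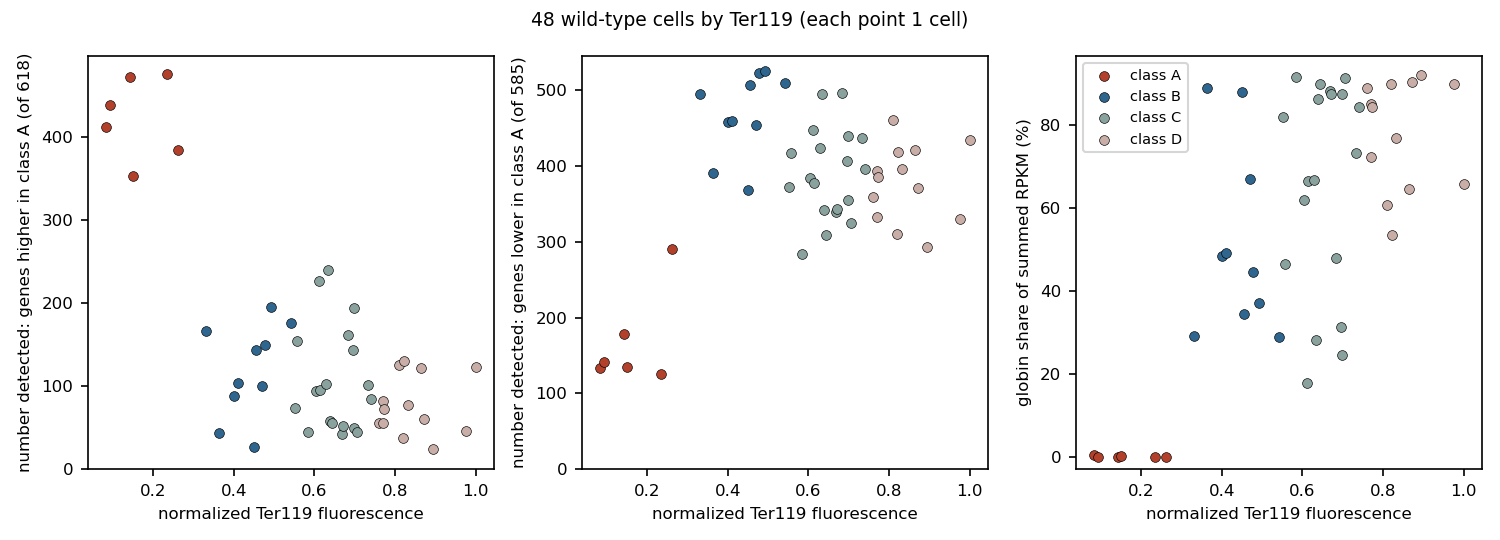
Number of the 618 higher genes detected (left), number of the 585 lower genes detected (middle) and globin share of summed RPKM in percent (right), against normalized Ter119 in all 48 wild-type cells, 1 point per cell, coloured by class. Class A cells have 353 to 476 of the higher genes, and WA6, at a Ter119 of 0.261, has 291 of the lower genes. Both gene sets were chosen by their values in classes A and B. The globin share counts near-identical copies separately, although these share reads, so it is too high as a share of reads.

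The erythroid lists were lower in class A as a class. All 6 adult globin genes were lower by more than 2 (at least 2 lower: 13.7% of all kept genes). Their median difference was -13.12, and their near-identical copies share reads. Hbb-b1 averaged 1.97 ± 1.86 in class A and 15.09 ± 1.23 in class B (SD over 6 and 10 cells), and Hba-a1 averaged 4.73 ± 2.72 in class A and 15.72 ± 1.15 in class B. Among class A cells Hba-a1 was 8.39 in WA1, 7.09 in WA4, 4.50 in WA3, 4.17 in WA5, 3.52 in WA2 and 0.72 in WA6. The cell with the most erythroid genes in class A therefore had the least globin, and the part of carried-over globin RNA in the other 5 was not tested.

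Of 14 kept heme synthesis genes, 12 were lower (13.7% of all kept genes) and none higher (14.5%), with a median difference of -4.70. Urod, an enzyme midway along the pathway, stood at 2.90 in WA2, 3.89 in WA5 and 0 in the other class A cells, against 7.66 to 10.12 in class B. Alas1, the form of the first enzyme used outside the red cell line, stood at 7.60 in WA1 and 2.67 in WA6 and at 0 in the other class A cells, and was detected in 1 of 10 class B cells. WA6 had 6 of the 15 heme genes detected, against 1 to 5 in the other class A cells and 10 to 15 in class B.

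Membrane genes were lower as well. In the red cell surface list 12 of 14 kept genes were lower (13.7% of all kept genes), with a median difference of -5.51. The membrane skeleton list had 6 of 11 lower and 1 higher (14.5% of all kept genes), at a median of -2.51. The higher gene was Tpm4, a tropomyosin of non-muscle cells, at 7.32 in WA2, 5.74 in WA3, 5.05 in WA4 and 0 in the other class A cells and in all of class B. Cd47, the surface signal that blocks engulfment, did not pass the size of 2: it averaged 7.14 ± 1.18 in class A and 8.03 ± 0.63 in class B.

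Of 13 kept erythroid transcription factors, 2 passed the size of 2 upwards (14.5% of all kept genes) and 8 downwards (13.7%). Their median difference was -2.18. Gata1 averaged 2.14 ± 3.20 in class A and 6.88 ± 1.21 in class B, and Klf1 0.81 ± 1.99 in class A and 6.07 ± 2.41 in class B. Gfi1b, a repressor shared by red cells and basophils, stood at 6.96 in WA1, 6.28 in WA3 and 5.79 in WA6 and at 0 in the other class A cells, against a class B median of 6.45. The 2 higher factors were Ets1, given above, and Ikzf1, the lymphoid and progenitor factor Ikaros, which averaged 5.24 ± 2.34 in class A and 2.97 ± 2.69 in class B. Tfrc, the transferrin receptor, averaged 4.01 ± 3.43 in class A, where it was highest in WA2 at 8.38 and at 0 in WA1 and WA5, and 7.34 ± 1.27 in class B.

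Leukocyte genes that 5 of the 6 class A cells shared were absent from WA6. Tyrobp, the adaptor of many myeloid receptors, stood between 8.92 and 10.24 in WA1 to WA5, at 0 in WA6 and at most 0.70 in class B. Fcer1g, the gamma chain of Fc receptors, stood between 7.06 and 8.69 in WA1 to WA5, and Coro1a, an actin regulator of leukocytes, between 7.26 and 9.06. Both were at 0 in WA6 and in every class B cell. Plac8, a protein of myeloid and plasmacytoid cells, stood between 9.01 and 10.95 in WA1 to WA5 and at 0 in the 11 other cells. Of the 29 genes of the leukocyte surface list, 11 to 20 were detected in WA1 to WA5, 6 in WA6 and 1 to 4 in class B cells. In that list 18 of 21 kept genes were higher in class A (14.5% of all kept genes) and none lower (13.7%), with a median difference of 3.83. The mean level of these kept genes was 0.06 to 0.48 in class B cells. Genes at 0 in class B pass the filter only when higher by at least 2, so the count and median partly follow from the filter.

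A smaller set was present in WA6 as well. Cd48, a surface ligand of blood cells, stood at 5.13, 10.61, 6.79, 5.73, 4.29 and 6.68 in WA1 to WA6 and was listed at 0 in all class B cells. Laptm5, a lysosomal protein of blood cells, stood between 4.51 and 9.57 in class A and at most 0.16 in class B. Cyba, a subunit of the NADPH oxidase, stood between 4.58 and 9.13 in class A and at 0 in class B. Arhgdib, a signalling regulator abundant in leukocytes, averaged 7.54 ± 0.97 in class A and 0.37 ± 1.17 in class B. Lgals1, a galectin, averaged 8.10 ± 1.68 in class A and 0.04 ± 0.12 in class B, and Tagln2, an actin-binding protein, stood between 6.04 and 9.92 in class A and at 0 in class B. These 6 genes are among the 32 whose classes do not overlap.

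**Figure D4:**
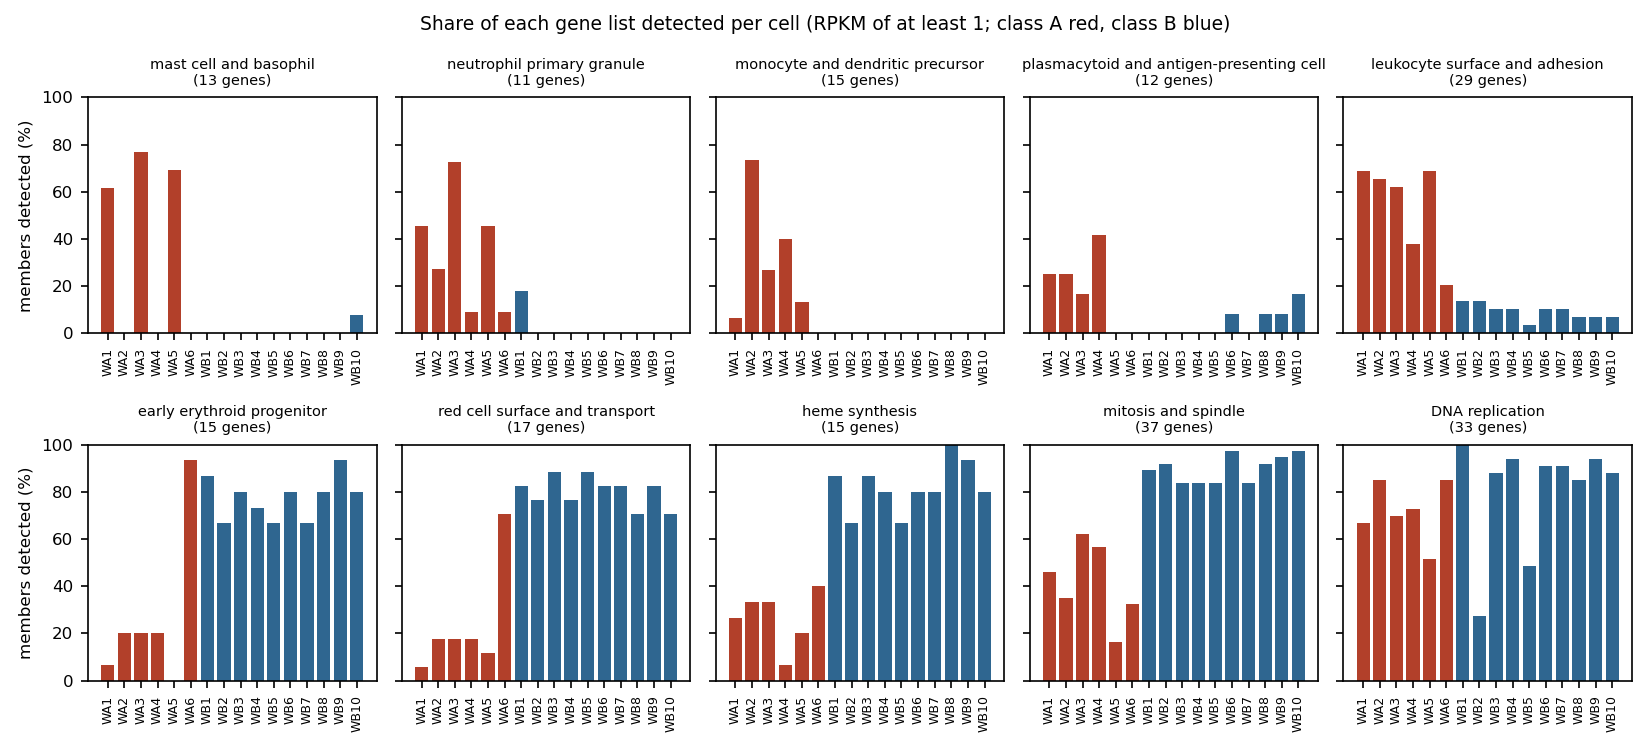
Share of each list's genes detected (percent, RPKM of at least 1) in every class A cell (red, left) and class B cell (blue, right), for 10 lists, with the number of genes in brackets. Within class A, the mast cell and basophil list is filled in WA1, WA3 and WA5 only. The early erythroid list is filled in WA6 only within class A, with 14 of 15 genes detected, and in class B cells with 10 to 14.

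Most kept MHC class I genes were higher in class A, though not every gene of the list. Of 13 kept MHC class I genes 10 were higher (14.5% of all kept genes) and none lower (13.7%), with a median difference of 2.94. H2-D1, a classical class I heavy chain, averaged 9.83 ± 0.91 in class A and 4.88 ± 3.32 in class B, and every class A cell was above every class B cell. The H2 genes resemble each other and can share reads, so their number is not a number of independent genes. Psmb8, an immunoproteasome subunit with no such copy on the list, stood between 2.78 and 8.97 in class A and at 0 in class B. Passing the filter therefore already put Psmb8 past a size of 2. Tap2, also on the list, stood at 7.15 in WA5 and at 0 in all other cells of both classes. B2m, the light chain, differed less, at 9.25 ± 0.38 in class A and 8.29 ± 0.94 in class B, and did not pass the size of 2. Class II was not general: H2-Ab1 stood at 8.98 in WA1 and 3.90 in WA3 and at 0 in the other class A cells, against 3.80 in 1 class B cell and 0 in the rest.

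Mitosis genes were lower in class A, and the number detected per cell did not overlap between the classes. Of the 37 genes of the list, 6 to 23 were detected in class A cells and 31 to 36 in class B cells. As a class 32 of 37 were lower (13.7% of all kept genes) and none higher (14.5%), with a median difference of -3.07. Ccnb1, the cyclin that starts mitosis, stood at 0.28 in WA1 and at 0 in the other class A cells, against 2.72 to 8.40 in class B. Cenpa, the centromere histone, stood at 0.31 in WA3 and at 0 in the others, against 3.28 to 8.30 in class B. Birc5, a subunit of the chromosomal passenger complex, averaged 2.16 ± 1.98 in class A and 8.70 ± 0.58 in class B.

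DNA replication genes overlapped between the classes. Of 33 genes, 17 to 28 were detected in class A cells and 9 to 33 in class B cells, with the lowest class B numbers in WB2 and WB5. As a class 13 of 33 were lower (13.7% of all kept genes) and none higher (14.5%), with a median of -1.59. Pcna, the replication clamp, averaged 7.34 ± 2.42 in class A and 7.67 ± 2.87 in class B. Mki67, present through the cycle, stood at 6.47, 7.31, 4.29 and 6.75 in WA1 to WA4 but at 0.24 in WA5 and 1.92 in WA6, against 5.27 to 8.53 in class B. WA5 had the fewest genes of both lists in class A, 6 of mitosis and 17 of replication.

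Several glycolytic enzymes differed between the classes by isozyme. Of 15 kept glycolysis genes 10 were higher in class A (14.5% of all kept genes) and 4 lower (13.7%), with a median of 2.87. Pkm, the general pyruvate kinase, stood between 7.34 and 9.61 in WA1 to WA5 and at 0 in WA6, and was detected in 1 of 10 class B cells, at 4.08. Pklr, the red cell and liver pyruvate kinase, was at most 0.18 in class A and detected in 4 of 10 class B cells, up to 7.29. Bpgm, which makes the red cell metabolite that loosens oxygen from hemoglobin, was detected in WA5 alone in class A, at 6.66, and in 6 of 10 class B cells. Pfkp, the platelet type of phosphofructokinase, was detected in 4 of 6 class A cells and at 0 throughout class B, whereas Pfkm, the muscle type, was at 0 throughout class A and detected in 5 of 10 class B cells. Of 46 genes of oxidative phosphorylation 1 was higher (14.5% of all kept genes) and 2 were lower (13.7%). Their median of -0.34 became 0.47 after scaling each cell to 1 sum, as did that of all kept genes.

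Markers of other blood cells were few. Of 17 B cell markers 16 were listed at 0 in all 16 cells, and the remaining gene, Cd24a, a surface protein that erythroid cells also carry, averaged 6.57 ± 1.53 in class A and 10.16 ± 0.29 in class B, with every class A cell below every class B cell. Of 15 T and NK cell markers, 1 was detected in each of WA1 to WA4, 2 in WA5 and none in WA6 or class B. Of 19 stem and progenitor markers 2 to 6 were detected in class A cells, most in WA6, and 1 or 2 in class B cells. Of 3 kept megakaryocyte and platelet genes 2 were higher (14.5% of all kept genes) and 1 lower (13.7%), with a median difference of 2.01. All 3 were at 0 throughout 1 class, so passing the filter already put each of them past a size of 2. The higher ones were Itga2b, given above, and Plek, a signalling protein of platelets and leukocytes, at 6.08 in WA2, 4.39 in WA3, 1.59 in WA4 and 0 in the other class A cells and in class B. The lower one was Gp9, a platelet receptor chain, at 0 in all 6 class A cells and detected in 6 of 10 class B cells. The only kept macrophage gene, Slc40a1, an iron exporter, was also at 0 in all 6 class A cells and detected in 6 of 10 class B cells.

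Ribosomal protein genes were close between the classes in the values as deposited. None of the 37 large-subunit and 28 small-subunit ribosomal protein genes was higher (14.5% of all kept genes) or lower (13.7%) by 2. Their medians were 0.39 and 0.53. After scaling each cell to 1 sum they were 1.30 and 1.44, where the median of all kept genes was 0.47. With globins left out of that sum they were 0.03 and 0.17, where that of all kept genes was -0.12. In the list of endoplasmic reticulum translocation and folding, 12 of 26 genes were higher (14.5% of all kept genes) and 1 lower (13.7%). The median of that list was 1.56. P4hb, a protein disulfide isomerase, averaged 6.33 ± 3.20 in class A and 0.75 ± 1.44 in class B, and Hspa5, the main chaperone of this compartment, 8.34 ± 2.69 in class A and 4.21 ± 2.61 in class B. Hspa5 was highest in the Prss34-rich cells WA3, at 11.42, and WA5, at 10.89. Nucleolar genes were higher for 9 of 21 and lower for none, with a median of 1.69, where 14.5% of all kept genes were higher. The proteasome list had 6 of 30 lower, a share near the 13.7% of all kept genes.

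**Figure D5:**
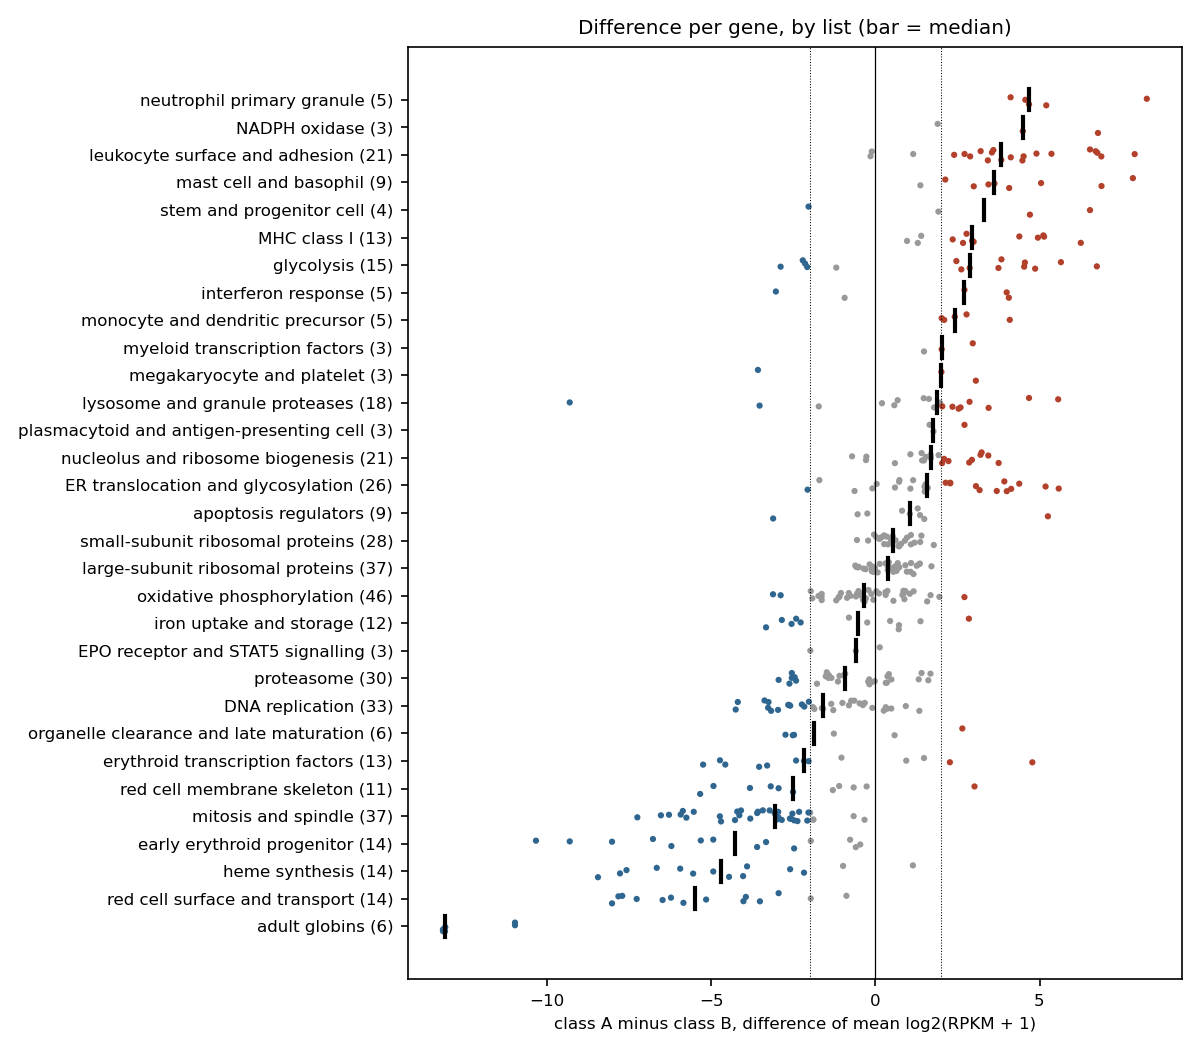
Class A minus class B for each kept gene, as difference of mean log2(RPKM + 1), in all but 1 of the lists with at least 3 kept genes; each point is a gene, red at 2 or more, blue at -2 or less, the bar is the list's median and the number of kept genes stands in brackets. Medians run from -13.12 for adult globins to 4.68 for neutrophil primary granule genes. Genes at 0 throughout 1 class were kept only with a difference of at least 2, so medians of lists that hold them partly follow from the filter. In the neutrophil list Ctsg, Ms4a3 and Plac8 are such genes.

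Cells rich in mast cell and basophil markers were few outside wild-type class A. Cells with 3 or more of the 13 mast cell and basophil markers made up 3 of the 6 in wild-type class A (50.0%). These cells came from 1 chip with no animal named, and the list was chosen with earlier results known. The share is therefore no rate of such cells in marrow. Wild-type classes B, C and D had 0 of 10, 0 of 19 and 0 of 13. Class A of the EPO-treated cells held 1 of 7, with 9 markers and Prss34 at 16.74, and a class A subgroup of the Flvcr-deleted cells (label suffix a) held 1 of 9, with 3 markers.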

How the data were processed

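Full-length cDNA of 127 single marrow cells was sequenced, of which the 6 wild-type cells of class A and the 10 of class B are compared here. The deposited table holds RPKM per transcript, made by the authors with TopHat2 2.0.9 and genome build mm9 per the submitters' processing notes. Which program counted reads is not given in the sources used here. In the table, 4 columns match no sample and were not used. For each of 24320 symbols the row with the highest mean was taken from 34898 transcript rows, and levels are log2(RPKM + 1), a pseudocount of 1. Genes with a mean of both class means of at least 1 were kept, a difference of mean levels of at least 2 counted as higher or lower, and no test was run because the labels name no animal.

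Of 4079 transcripts with 1 exon, 99.5% were at 0 in every wild-type cell, so intronless genes such as Cebpa could not be read. Some genes of the lists are counted but not reported by name here. Read depth was estimated from the smallest step of length-corrected values. Scripts used Python 3.11.15, pandas 2.3.3, numpy 2.4.6, scipy 1.17.1 and matplotlib 3.10.9 and were tested on simulated data.

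The members and the 38 gene lists were chosen with earlier results of these data known. Genes named were the 15 largest differences each way, the 8 genes setting each class A cell farthest apart, up to 4 genes of each list with the largest difference, and a fixed set that includes Mpo, Ctsg, Gata2, Gata1, Klf1 and Hbb-b1. Further list members, genes whose classes do not overlap and the heat map's genes were chosen after their values were seen. Alternatives were other pseudocounts, filters, scalings, summaries and sizes, leaving out each cell, cells of matched gene number, and classes B, C and D together as the comparison.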

Additional observations from a re-analysis of the deposited data

Results flagged for a closer look

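Of 52 sets of values looked at, each a marker list, gene or per-cell measure within a class, 11 had a cell far from the rest of its class. The per-cell measures were Ter119, detected genes, summed RPKM, estimated reads and globin share, and none of them was flagged. In 8 of the 11 the other cells were all at 0, where any value above 0 stands apart however small, so the rate of about 1 in 20 that chance gives for continuous values is no guide here. In class A, WA6 stood apart with Klf1 at 4.88 and Epor at 5.32 on the log2(RPKM + 1) scale, each at 0 in WA1 to WA5, and with 2 stroma and endothelium markers detected against 1 in each other cell. Spi1, a myeloid transcription factor, was at 0.46 in WA1 and at 0 in the other class A cells, and Mfsd7b, the heme exporter gene also called Flvcr, was at 1.62 in WA5 and at 0 in the others.

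In class B, WB1 stood apart with 2 neutrophil primary granule markers, among them Mpo at 1.87, against 0 in the other 9 cells. WB10 had 2 plasmacytoid and antigen-presenting markers and 2 macrophage markers, against 0 or 1 in the others, and 1 mast cell and basophil marker, against 0. Ptprc, the common leukocyte antigen, was at 0.30 in WB8 and at 0 in the other class B cells.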

How the results depend on the processing

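Over all alternatives, no named gene past a size of 2 changed sign, but some lost their difference. Irf8, Ly6c2, Cd7 and Egr1 fell to 0 under at least 1 alternative, and Bst2 fell from 2.71 to 0.28. Of the recomputed differences of named genes, 4431 moved by less than the spread between class A cells (SD) and 777 by more. That spread is wide for genes present in some class A cells and at 0 in others, so it is a loose measure there. Among recomputed list medians 907 moved by less than that spread, 90 by more, and 4 that were past a size of 2 changed sign. The sign changes were the megakaryocyte and platelet list (-0.0278) and the macrophage list (0.0765) with no filter, and the interferon list with no filter (-0.306) and with a filter at a mean of 3 (-0.941).

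The 618 higher genes became 997 with a pseudocount of 0.1, 140 with 10, 163 with the filter at 3 and 1252 at a size of 1. The 585 lower genes became 939, 138, 228 and 1152 in the same order, 927 over cells of matched gene number, and 364 against classes B, C and D. The 32 genes with every class A cell above class B became 50 after scaling to 1 sum, 64 over matched cells and 14 against classes B, C and D. The 55 below became 34 with the filter at 3, 123 over matched cells and 29 against classes B, C and D. The cause was not tested for any of these.

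Leaving out 1 cell at a time gave 583 to 668 higher genes, 545 to 735 lower genes, 32 to 63 genes above (55 without WA4, 63 without WA6) and 56 to 75 below. No paired analysis was possible because the numbers rank cells within a class by Ter119 and no test was run. Depth limits low genes, and the cell number limits every class value.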

Other observations

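A few stress, iron and interferon genes outside the report's comparisons also differed among class A cells, all on the log2(RPKM + 1) scale. Casp6, an effector caspase, was at 5.76 in WA6 and at 0 in the other class A cells, and was detected in 8 of 10 class B cells. Trf, transferrin, stood at 7.89 in WA1, 4.41 in WA3 and 7.51 in WA5, the 3 cells rich in Prss34, and at 0 in WA2, WA4 and WA6. Slc11a2, an iron transporter, was at 0 in all 6 class A cells. Ifitm1, an interferon-induced membrane protein, stood at 10.12 in WA1 and 10.07 in WA3 but at 0 in WA5, so it did not follow Prss34 in all 3 cells.

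Nucleolar genes were fullest in WA6, with 27 of 30 detected, against 7 to 20 in the other class A cells and 1 to 19 in class B cells. Fbl, a methyltransferase of ribosomal RNA, stood at 6.34 in WA6 and between 2.18 and 6.01 in the other class A cells. Npm1, a nucleolar chaperone, stood at 10.23 in WA6 and between 6.49 and 8.70 in the others. WA6 also had the most detected genes of the 16 cells, and the part of that in these counts was not tested.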
